A study of Homo sapiens with 6 samples.

Results

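The tumour necrosis factor (TNF) family pairs small trimeric ligands with receptors on the cell surface, and its transcripts were compared between UBE2S knockdown and control A375 melanoma cells. Members were the genes whose symbol starts with TNFRSF (receptors) or TNFSF (ligands), together with TNF, LTA, LTB, FAS, FASLG, CD40, CD70 and NGFR. They came to 38 genes of the 18132 on the array that have a probe set with a single gene symbol, read by 80 of 49293 probe sets. CD40LG, also named in the rule, was not analysed here. The members held 23 receptors and 15 ligands.

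Ligands of this family are mostly made as membrane proteins and can be shed as soluble trimers. Receptors with a cytoplasmic death domain recruit adaptors such as FADD and TRADD and can start caspase-driven cell death, whereas others bind TRAF proteins and feed the NF-kB and JNK pathways. Decoy receptors bind ligand without passing on a full signal. Ubiquitin chains on receptor complexes decide much of the output, and tumour cells, melanoma among them, can express both receptors and ligands.

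A375 is an established human melanoma line. The knockdown cells had received a lentivirus that carries a short hairpin RNA against UBE2S, a ubiquitin-conjugating enzyme, and the comparison asks which transcripts differ from control A375 cells. Both groups had 3 replicates that the labels call biological, with 1 Affymetrix array each. What the controls received, the time after infection and whether clones were picked are not stated. Several labels spell the targeted gene UEB2S, read here as UBE2S because the title names it so. No label says that replicates came from separate cultures, so p-values measure the spread between these samples.

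The values are log2 signals from which the median of the 6 arrays was removed for each probe set. They show how arrays differ and carry no absolute level, so levels of different genes are not compared. UBE2S stood at -1.13, -1.05 and -1.01 in the knockdown arrays, against 1.06, 1.01 and 1.01 in the control arrays, which leaves 23.5% of the control signal. Of the melanoma markers, SOX10, S100B and CSPG4 had probe sets in the highest of 3 coarse signal classes, and TYRP1 had none above the lowest. Of 23 background control probe sets 4 lay in the highest class too, so a class does not show detection. Of 9 measured melanoma markers S100B (1.09), TYRP1 (0.22) and CSPG4 (0.16) rose and MITF (-0.72) fell, and the calls of TYRP1 and CSPG4 were lost under the hybridization spike-in scaling described below. The mean of these markers lay between 0.029 and 0.072 in knockdown arrays and between -0.081 and -0.022 in control arrays. Among 13 blood cell markers, 4 had no probe set above the lowest class, 1 rose (CD68, 0.40) and 0 fell. Their mean centred value lay between -0.0093 and 0.033 in knockdown arrays and between -0.042 and -0.012 in control arrays, and their part in the results below was not tested. Of 6 fibroblast markers LUM rose (0.93) and DCN fell (-0.23), with means from 0.025 to 0.098 in knockdown arrays and from -0.11 to -0.071 in control arrays. Of 4 endothelial markers VWF rose (0.16), with means from -0.036 to 0.036 in knockdown arrays and from -0.042 to -0.011 in control arrays. Neither list had a probe set in the highest class, and their part was not tested either.

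Most TNF family transcripts differed little between the groups, and a pair of them differed strongly. Of the 38 members, 7 rose and 4 fell at an adjusted p under 0.05 in limma, while 27 did not pass the test. Over all genes 40.1% passed, 21.4% upward and 18.6% downward, so the members' counts were not above the background. Their median difference, knockdown minus control, was 0.038 on the log2 scale, against -0.0038 over all genes. At least 2-fold changes were found for 2 members, TNFRSF9 and TNFRSF11B, both lower in knockdown cells, where 1.06% of all genes changed by as much. They were also the only members that changed by at least 0.5 on the log2 scale, as 7.13% of all genes did. The other 9 changes lay between 0.11 and 0.37 in absolute size. The groups did not overlap for 15 members, and the share over all genes was 50%. Of the 16 members with a probe set in the highest signal class 6 changed, and of the 22 without one 5 changed. The share of all genes was 40.1% and was not split by signal class, so no link between class and change is read from these counts. The culture was measured in bulk, so less RNA per cell and fewer cells that express a gene cannot be told apart.

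**Figure D1:**
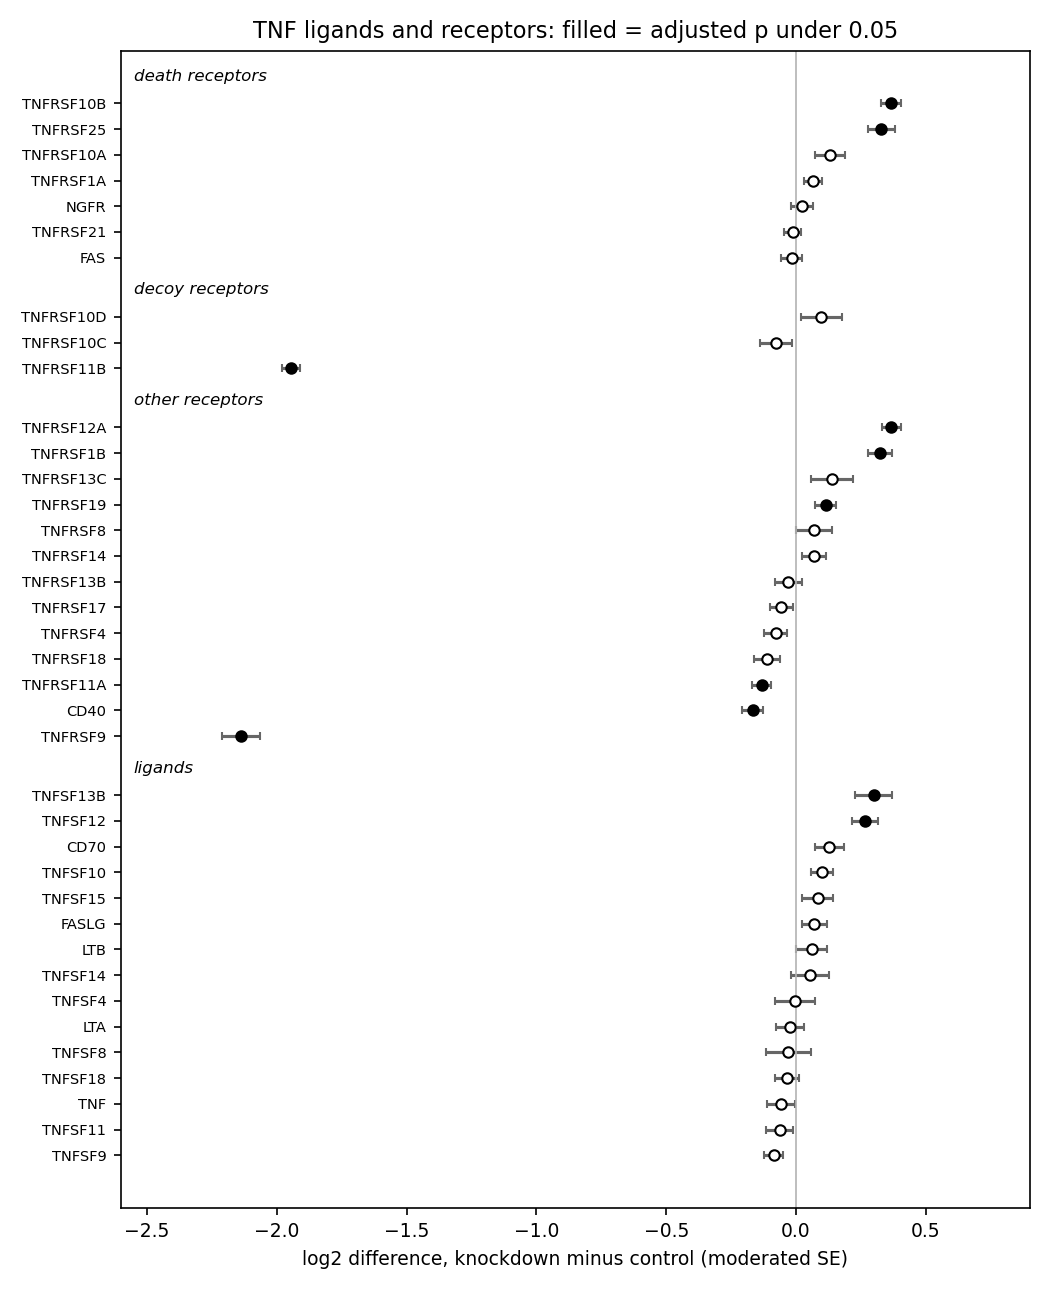
Log2 difference (knockdown minus control, horizontal axis) of the 38 members by role, with moderated standard errors, 3 arrays per group. Filled points passed the test, and the 2 far to the left are TNFRSF9 at -2.14 and TNFRSF11B at -1.95, while all others lie between -0.17 and 0.37.

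TNFRSF9, a costimulatory receptor best known on activated T cells and natural killer cells that signals through TRAF proteins, had the largest change in the family. Its centred log2 values were -0.99, -1.24 and -0.99 in the knockdown arrays, against 1.10, 1.11 and 0.99 in the control arrays. Every knockdown array lay far below every control array, and the second knockdown array was the lowest of all. TNFRSF9 fell by 2.14 (SE 0.07, adjusted p = 5.84e-07 in limma) to 22.7% of the control signal, and only 4 of all genes fell further. It is read by a single probe set, which was placed in the highest signal class. That class rests on the values -0.99, -0.99 and 0.99 alone, because larger values are printed with too few decimals. Its ligand TNFSF9, at -0.087 (SE 0.04), missed the threshold (adjusted p = 0.111 in limma).

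The sequence before the TNFRSF9 start is shown because this gene carries the largest difference. It is taken from RefSeq (GRCh38.p14, chr1:7940840-7941089, minus strand, 250 bases up to the transcription start, 5′ to 3′), and capitals mark matches to a kappaB pattern.
TNFRSF9: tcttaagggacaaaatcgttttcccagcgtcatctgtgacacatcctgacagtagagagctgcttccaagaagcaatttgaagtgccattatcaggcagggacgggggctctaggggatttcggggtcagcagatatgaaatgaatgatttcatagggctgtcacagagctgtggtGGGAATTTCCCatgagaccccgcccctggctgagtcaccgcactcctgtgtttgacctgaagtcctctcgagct
The pattern searched on both strands was GGG, any 5 bases and CC. The 2 matches overlap by all but 1 base and begin 74 and 73 bases before the start. The pattern is common and was found in 54.4% of all 35116 promoter windows of this length. Of the 24 members that had a window, 19 had a match in any of their 32 windows. Shares of windows and of genes are unlike measures, and a match is a description of the letters only.

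TNFRSF11B, or osteoprotegerin, is a secreted decoy receptor that binds the RANK ligand TNFSF11 and also the death ligand TRAIL (TNFSF10). Its values were -0.97, -0.97 and -0.95 in the knockdown arrays, against 0.991, 0.955 and 0.999 in the control arrays. The replicates of each group lay close together and the groups were wide apart. TNFRSF11B fell by 1.95 (SE 0.03, adjusted p = 5.37e-08 in limma) to 26.0% of the control signal, and 8 of all genes fell further. It too has 1 probe set, in the highest signal class. The ligand TNFSF11, at -0.064 (SE 0.05), missed the threshold (adjusted p = 0.38 in limma). Its probe set of the highest class stood at -0.14 and that of the lowest at 0.012. With lowest-class probe sets left out TNFSF11 fell by 0.14 (adjusted p = 0.0269 in limma), read by the highest-class probe set alone. In the fit over all probe sets that probe set missed the threshold (adjusted p = 0.0601 in limma). TNFRSF11A, the signalling receptor RANK of that ligand, fell by 0.13 (SE 0.04, adjusted p = 0.0219 in limma). Its only probe set is in the lowest signal class and missed the threshold in the fit over all probe sets (adjusted p = 0.0506 in limma). The call was lost when any array other than knockdown replicate 1 was left out, with adjusted p-values from 0.0536 to 0.088. The other decoy receptors, TNFRSF10C (-0.077) and TNFRSF10D (0.098), which bind TRAIL, did not pass the test as means of probe sets with a single symbol. Another 2 probe sets, annotated with TNFRSF10C and a second locus together, rose by 0.69 and 0.42 (adjusted p = 3.89e-05 and 0.0135 in limma), and their signal cannot be assigned to either gene.

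**Figure D2:**
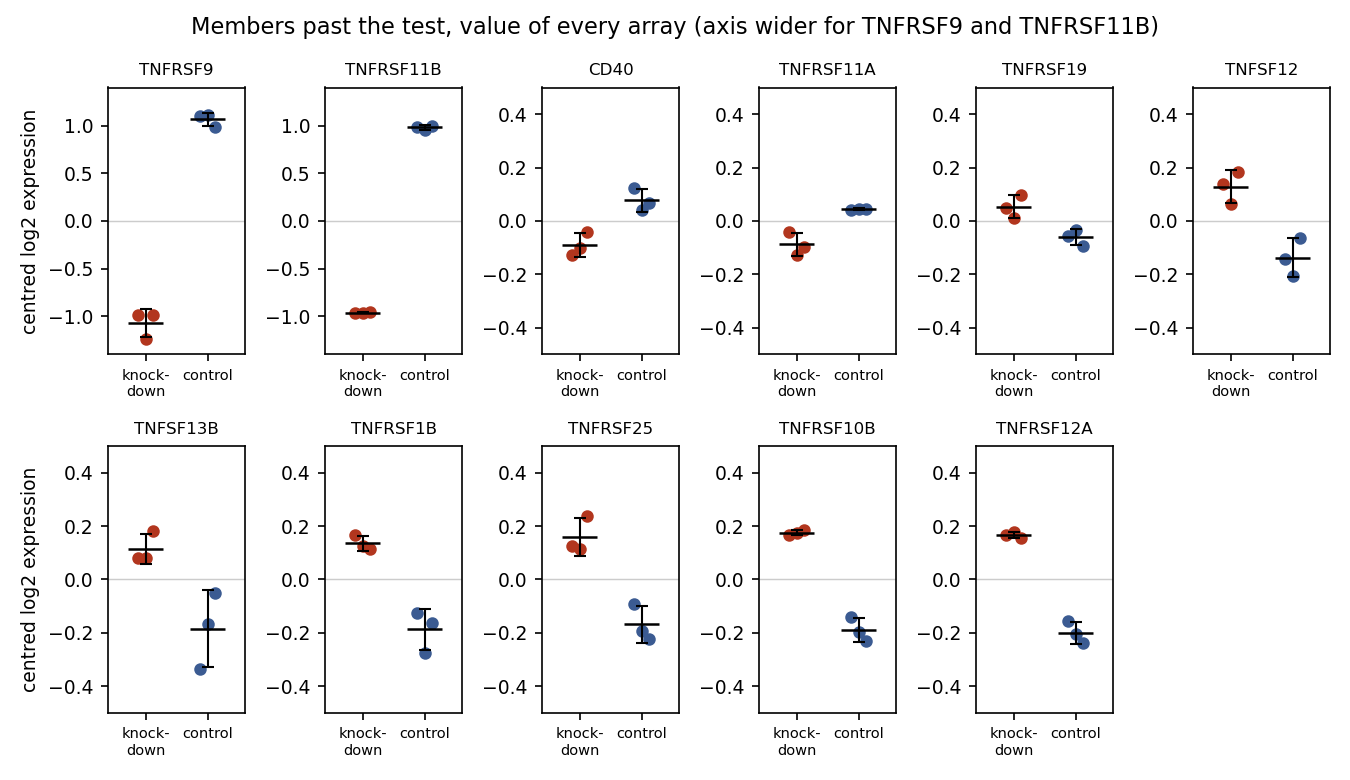
Centred log2 expression (vertical axis) of the 11 members that passed the test, each point 1 array, knockdown left and control right, with mean and SD (n = 3). The axis of TNFRSF9 and TNFRSF11B is wider than that of the others, and in every panel the 3 knockdown arrays lie on 1 side of the 3 control arrays.

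Among 7 death receptors, 2 rose and 0 fell, where 21.4% of all genes rose and 18.6% fell. TNFRSF10B, which starts cell death on binding TRAIL, had values of 0.17, 0.17 and 0.19 in knockdown arrays and of -0.14, -0.20 and -0.23 in control arrays. The knockdown replicates were nearly equal, and the gap between the groups was far wider than the spread in either. It rose by 0.37 (SE 0.04, adjusted p = 0.000124 in limma), a 1.29-fold increase, and its 3 probe sets gave 0.30, 0.45 and 0.35, each past the test in the fit over all probe sets. TNFRSF25, a death-domain receptor best known on lymphocytes, rose by 0.33 (SE 0.05, adjusted p = 0.00128 in limma), with probe sets at 0.36 and 0.29. Its lowest knockdown array was at 0.11 and its highest control array at -0.091. TNFRSF10A, the other death receptor for TRAIL, stood at 0.13 (SE 0.06, adjusted p = 0.117 in limma) with control arrays spread from -0.19 to 0.015. Without control replicate 2, the one at 0.015, it rose by 0.20 (adjusted p = 0.00805 in limma). With any other single array left out it did not pass the test (adjusted p from 0.162 to 0.310 in limma).

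TRAIL itself, TNFSF10, is inducible by interferon in many cell types. It stood at 0.022, 0.12 and 0.0061 in the knockdown arrays, against -0.057, -0.034 and -0.064 in the control arrays. The groups did not overlap, but the difference of 0.10 (SE 0.04) did not pass the test (adjusted p = 0.0927 in limma). All 3 of its probe sets were in the lowest signal class, and they gave 0.070, 0.095 and 0.14.

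TNFRSF21 (-0.013) and NGFR (0.024), both with a death domain and best known in the nervous system, did not pass the test, and their groups overlapped. FAS and TNFRSF1A, the receptors of FAS ligand and of TNF, did not pass it as gene means either (-0.017 and 0.066), but these means hide probe sets that moved in opposite directions. Opposite calls within a gene were found for 2 of the 27 members with several probe sets, FAS and TNFRSF1A, and for 3.49% of all genes with at least 2 probe sets.

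For FAS, the probe set of the _a_at kind stood at -0.45, -0.27 and -0.22 in the knockdown arrays, against 0.25, 0.22 and 0.28 in the control arrays. The probe set of the _s_at kind stood at 0.28, 0.22 and 0.21 in the knockdown arrays, against -0.21, -0.25 and -0.41 in the control arrays. Neither probe set had any overlap between the groups, and the order of the groups was turned round between them. In the fit over all probe sets the _a_at probe set fell by 0.56 (SE 0.07, adjusted p = 0.000325 in limma), and the _s_at probe set rose by 0.53 (SE 0.06, adjusted p = 0.000374 in limma). The background of that fit was 36.9% of probe sets, 19.5% upward and 17.4% downward. A fit of each probe set against the mean of the others of its gene, added after the FAS values had been seen, gave a difference of -1.08 (SE 0.10, adjusted p = 0.000582 in limma) for the _a_at probe set. In that fit 8 of 69 member probe sets differed from the others of their gene, and 16.6% of all did. They belonged to FAS, TNFRSF1A, CD70, LTB and TNFRSF19. In a gene with 2 probe sets both give the same contrast with the sign turned, so FAS, CD70 and LTB are each counted 2 times. The share over all probe sets is counted in the same way. On Affymetrix arrays the ending _a_at marks probes shared by transcripts of 1 gene, and _s_at marks probes that can also match transcripts of other genes. The _a_at set was in the middle signal class and the _s_at set in the highest. The RefSeq promoter table holds 3 start windows for FAS, and which transcripts each probe set reads is not given in the tables used here.

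For TNFRSF1A, the receptor through which TNF signals in most cells, 3 probe sets of the _s_at kind in the highest signal class gave 0.20, 0.20 and 0.14. The first and second of them rose (adjusted p = 0.0276 and 0.0181 in limma), and the remaining one missed the threshold (adjusted p = 0.0515 in limma). A further probe set, of the middle class, gave -0.29 (SE 0.08, adjusted p = 0.0266 in limma) and differed from the rest of its gene by -0.47 (adjusted p = 0.0282 in limma). Knockdown replicates 2 and 3 stood at -0.34 and -0.32 there, whereas replicate 1 was at -0.033, close to the control arrays between 0.033 and 0.072. Probe sets also differed within CD70, a ligand of the receptor CD27, at 0.35 and -0.092 (difference 0.44, adjusted p = 0.0179 in limma). The probe set at 0.35, of the highest signal class, passed the test in the fit over all probe sets (adjusted p = 0.000553 in limma), and the other did not. The gene mean of CD70 was 0.13 (SE 0.06, adjusted p = 0.11 in limma), and it passed the test without knockdown replicate 1 (0.18, adjusted p = 0.0222 in limma). With any other single array left out this mean did not pass (adjusted p from 0.0929 to 0.284 in limma).

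**Figure D3:**
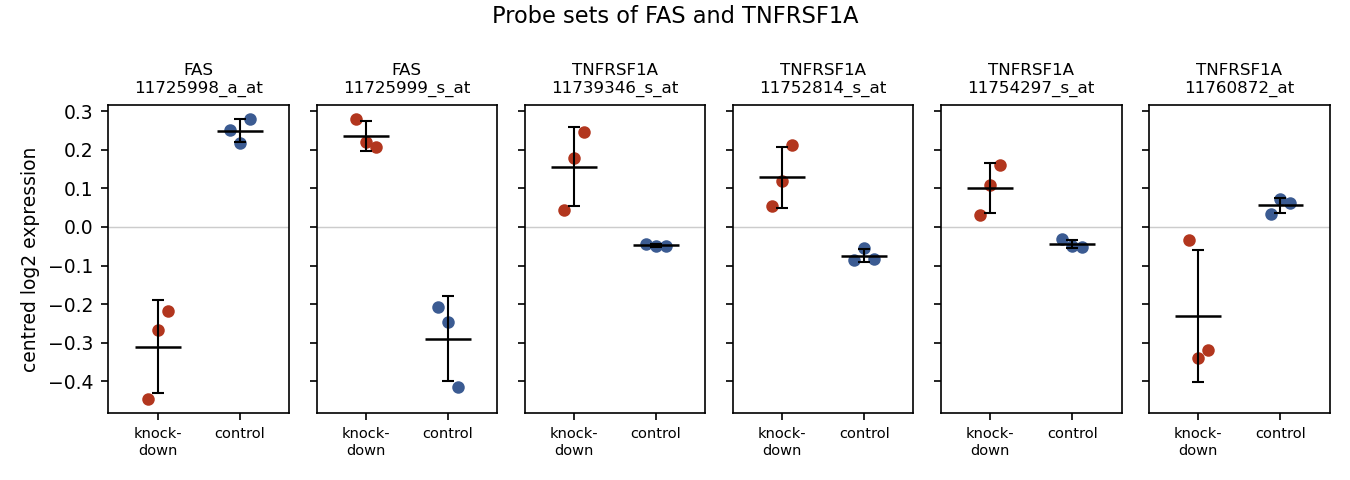
Centred log2 expression (vertical axis) of the probe sets of FAS and TNFRSF1A, each point 1 array, knockdown left and control right, with mean and SD (n = 3). The 2 probe sets of FAS differ by -0.56 and 0.53 between the groups, and the last probe set of TNFRSF1A runs against the other 3.

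Of the 13 other receptors, 3 rose and 3 fell, where 21.4% of all genes rose and 18.6% fell. TNFRSF9 and TNFRSF11A, given above, were among the 3 receptors that fell. TNFRSF12A is the receptor for the ligand TWEAK (TNFSF12) and is known for its induction in injured and growing tissue. It had values of 0.16, 0.18 and 0.16 in knockdown arrays and of -0.16, -0.20 and -0.24 in control arrays. It rose by 0.37 (SE 0.04, adjusted p = 0.00011 in limma), a 1.29-fold increase read by 1 probe set of the highest class. Its ligand TNFSF12 rose by 0.27 (SE 0.05, adjusted p = 0.00338 in limma), from 1 probe set of the middle class. TNFSF12 values were 0.14, 0.063 and 0.18 in knockdown arrays and -0.14, -0.21 and -0.063 in control arrays. Both partners were thus higher in all 3 knockdown arrays than in any control array.

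TNFRSF1B, the TNF receptor without a death domain, rose by 0.32 (SE 0.05, adjusted p = 0.000809 in limma). Its values were 0.17, 0.13 and 0.11 in the knockdown arrays, against -0.13, -0.27 and -0.16 in the control arrays. All 3 of its probe sets passed the test (0.26, 0.33 and 0.39), and all were in the middle class. TNF itself, its ligand, stood at -0.058 (SE 0.05) with overlapping groups.

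CD40, a receptor best known on B cells and antigen-presenting cells, fell by 0.17 (SE 0.04, adjusted p = 0.012 in limma), with values from -0.13 to -0.042 in knockdown arrays and from 0.042 to 0.13 in control arrays. Of its probe sets, 1 passed the test (-0.19) and the other did not (-0.14, adjusted p = 0.0779 in limma). TNFRSF19, an orphan receptor of the family, rose by 0.11 (SE 0.04, adjusted p = 0.0494 in limma). The call was lost without any of the 6 arrays in turn (adjusted p from 0.0581 to 0.136), and 1 of its 3 probe sets stood at -0.044. TNFRSF18 stood at -0.11 (adjusted p = 0.115 in limma), and passed the test without knockdown replicate 1 (-0.15, adjusted p = 0.0437 in limma). With any other single array left out TNFRSF18 did not pass (adjusted p from 0.155 to 0.285 in limma). The lymphocyte receptors TNFRSF4 (-0.078), TNFRSF17 (-0.056), TNFRSF13B (-0.030), TNFRSF8 (0.070) and TNFRSF13C (0.14) did not pass the test and their groups overlapped. The same held for TNFRSF14 (0.069), whose 7 probe sets ranged from -0.13 to 0.29, the highest of them past the test (adjusted p = 0.0176 in limma).

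Of the 15 ligands, 2 rose and 0 fell, where 21.4% of all genes rose and 18.6% fell. Besides TNFSF12, TNFSF13B rose, the B cell survival factor BAFF, which myeloid cells release in response to interferon. Its values were 0.082, 0.082 and 0.18 in knockdown arrays and -0.34, -0.17 and -0.050 in control arrays. The control arrays were spread more widely than the knockdown arrays, and the groups did not overlap. The difference was 0.30 (SE 0.07, adjusted p = 0.0107 in limma), and 0.22 without control replicate 1, where 1 of its probe sets was at -0.64. Neither of its 2 probe sets passed the test alone (0.40 and 0.20, adjusted p = 0.0536 and 0.0767 in limma). Its receptors TNFRSF13B, TNFRSF13C and TNFRSF17 have been given above. The ligands TNFSF14 (0.052), LTB (0.060), FASLG (0.071) and TNFSF15 (0.083) did not pass the test. Of LTA (-0.023), 1 low-class probe set fell by 0.16 (adjusted p = 0.0188 in limma), while the gene mean did not pass. Neither did the means of TNFSF8 (-0.029), TNFSF18 (-0.035) and TNFSF4 (-0.0047). Among gene means of ligands, the 0.30 of TNFSF13B was the largest difference, while single probe sets reached more, such as the 0.35 of CD70.

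All promoter windows were also searched for a pattern of the interferon-stimulated response element, and TNFSF10 and TNFSF13B are inducible by interferon. The pattern, GAAA, any 2 bases and GAAA on either strand, was found in 3.02% of all promoter windows. Of the 24 members with a window 5 had a match in any of their 32 windows, so the shares of windows and of genes are unlike measures. Of these 5, 2, TNFRSF1B and TNFSF13B, had risen and 3, TNFSF10, TNFSF9 and FASLG, had not passed the test. Among all 24 members with a window 4 had risen and 2 had fallen. The changed members TNFRSF11B, TNFRSF10B, TNFRSF12A, TNFSF12 and CD40 had no window. The 250 bases before the start are shown for TNFRSF1B, which rose, and TNFSF10, which did not pass the test (RefSeq, GRCh38.p14, chr1:12166741-12166990, plus strand, and chr3:172523431-172523680, minus strand). Capitals mark the match, here the reverse complement of the pattern, which begins 10 bases before the start in TNFRSF1B and 187 bases before it in TNFSF10.
TNFRSF1B: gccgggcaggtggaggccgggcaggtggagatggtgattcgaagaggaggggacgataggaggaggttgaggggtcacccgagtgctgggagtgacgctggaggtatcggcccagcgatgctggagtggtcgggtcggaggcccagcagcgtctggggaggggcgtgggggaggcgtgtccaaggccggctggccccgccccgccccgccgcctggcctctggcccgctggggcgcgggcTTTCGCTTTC
TNFSF10: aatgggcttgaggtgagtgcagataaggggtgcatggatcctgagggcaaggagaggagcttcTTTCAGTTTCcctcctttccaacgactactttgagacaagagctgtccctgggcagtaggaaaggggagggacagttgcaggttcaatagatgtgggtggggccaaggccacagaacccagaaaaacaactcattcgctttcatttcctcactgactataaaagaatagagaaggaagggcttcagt
Both windows hold the pattern, and the genes stood at 0.32 and 0.10. A match describes letters and shows neither a used site nor a cause.

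The calls of several smaller changes depended on how the arrays were scaled. Hybridization spike-ins, which the array maker's protocol adds after labelling, were 0.168 higher in knockdown arrays, and poly-A spike-ins, which it adds to the RNA, were 0.0978 higher. For ACTB, the probe sets of the 3' end stood higher relative to those of the 5' end in knockdown arrays, by 0.191 and without overlap. The same measure of GAPDH differed by 0.0226 with overlapping groups, from -0.028 to 0.027 in knockdown arrays and from -0.024 to -0.0067 in control arrays. These values are of the size of several of the changes above, and their part was not tested. With arrays centred on the hybridization spike-ins, the median of all genes moved to -0.17, 9.73% of genes rose and 50.7% fell, and of the members 3 rose and 17 fell. The 3 were TNFRSF10B (0.20), TNFRSF12A (0.20) and TNFRSF25 (0.16). TNFRSF1B (0.16), TNFSF13B (0.13) and TNFSF12 (0.099) kept a positive sign but lost the call, and TNFRSF19 turned to -0.054. With poly-A spike-ins as the base 6 members rose and 11 fell, against 13.7% and 34.7% of all genes. TNFRSF9 stood at -2.23 and TNFRSF11B at -2.04 in that fit. Over the 14 alternatives of the closing section that refit all genes, 6 members kept their call in every one: TNFRSF9, TNFRSF11B, CD40, TNFRSF10B, TNFRSF12A and TNFRSF25.

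**Figure D4:**
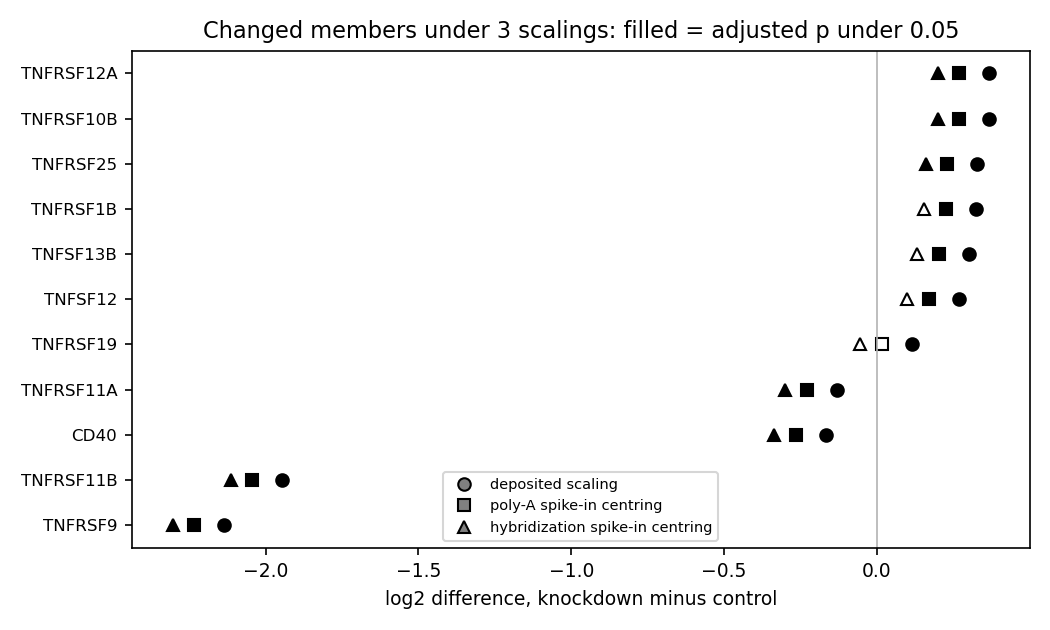
Log2 difference (knockdown minus control, horizontal axis) of the 11 members that passed the test, under the deposited scaling (circles), poly-A spike-in centring (squares) and hybridization spike-in centring (triangles). Filled symbols passed the test in that fit, and TNFRSF19 crosses 0, at 0.11, 0.016 and -0.054.

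Family members that go by other symbols were outside the rule. Of 6 such genes, LTBR, the lymphotoxin beta receptor, rose by 0.37 (SE 0.04, adjusted p = 0.000114 in limma) and EDA2R, an ectodysplasin receptor, fell by 0.25 (SE 0.05, adjusted p = 0.00436 in limma). CD27 (0.13), EDA (-0.0097), EDAR (-0.071) and RELT (-0.10) did not pass the test. LTBR and EDA2R kept sign and call under both spike-in centrings.

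Downstream of the receptors, a list of adaptors, ubiquitin enzymes, kinases, caspases and ligand sheddases was read in the same fit. Of 35 measured genes 11 rose (31.4%) and 9 fell (25.7%), against 21.4% and 18.6% of all genes, with a median of 0.046. Another 3 listed genes were not analysed here. The list was chosen with earlier results of these data known, so its shares are no independent evidence of an excess. TANK, a TRAF-binding adaptor, had the largest rise. Its values were 0.38, 0.38 and 0.34 in knockdown arrays and -0.39, -0.31 and -0.44 in control arrays, a difference of 0.75 (SE 0.04, adjusted p = 6.30e-06 in limma). Of 4 listed proteases that cut TNF family ligands or other membrane proteins, SPPL2A rose by 0.56 and ADAM10 by 0.52 (SE 0.04 each). ADAM17, which releases soluble TNF, fell by 0.17 (SE 0.05, adjusted p = 0.0198 in limma), with probe sets from -0.43 to 0.070, and SPPL2B, at 0.033, did not pass the test (adjusted p = 0.641 in limma). RNF31, the catalytic subunit of the linear ubiquitin ligase, rose by 0.46 (SE 0.06), and CASP8, the initiator caspase of death receptors, rose by 0.42 (SE 0.04).

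TNFAIP3, a ubiquitin-editing enzyme that ends NF-kB signalling and is itself an NF-kB target, fell furthest. It stood at -0.52, -0.48 and -0.47 in knockdown arrays, against 0.41, 0.47 and 0.42 in control arrays, and fell by 0.92 (SE 0.04, adjusted p = 1.24e-06 in limma). MLKL, which carries out necroptosis, fell by 0.64 (SE 0.04), the adaptor TRAF3 by 0.59 (SE 0.05) and the kinase partner TAB3 by 0.35 (SE 0.04). The probe sets of TAB3 ranged from -0.60 to -0.025. FADD (0.046), CFLAR (0.082) and RIPK3 (-0.082) missed the threshold. Under hybridization spike-in centring 7 of the list rose (20%) and 16 fell (45.7%), against 9.73% and 50.7% of all genes. The 10 genes named above as changed kept sign and call there, and TRAF1, at 0.16, turned to -0.0059.

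**Figure D5:**
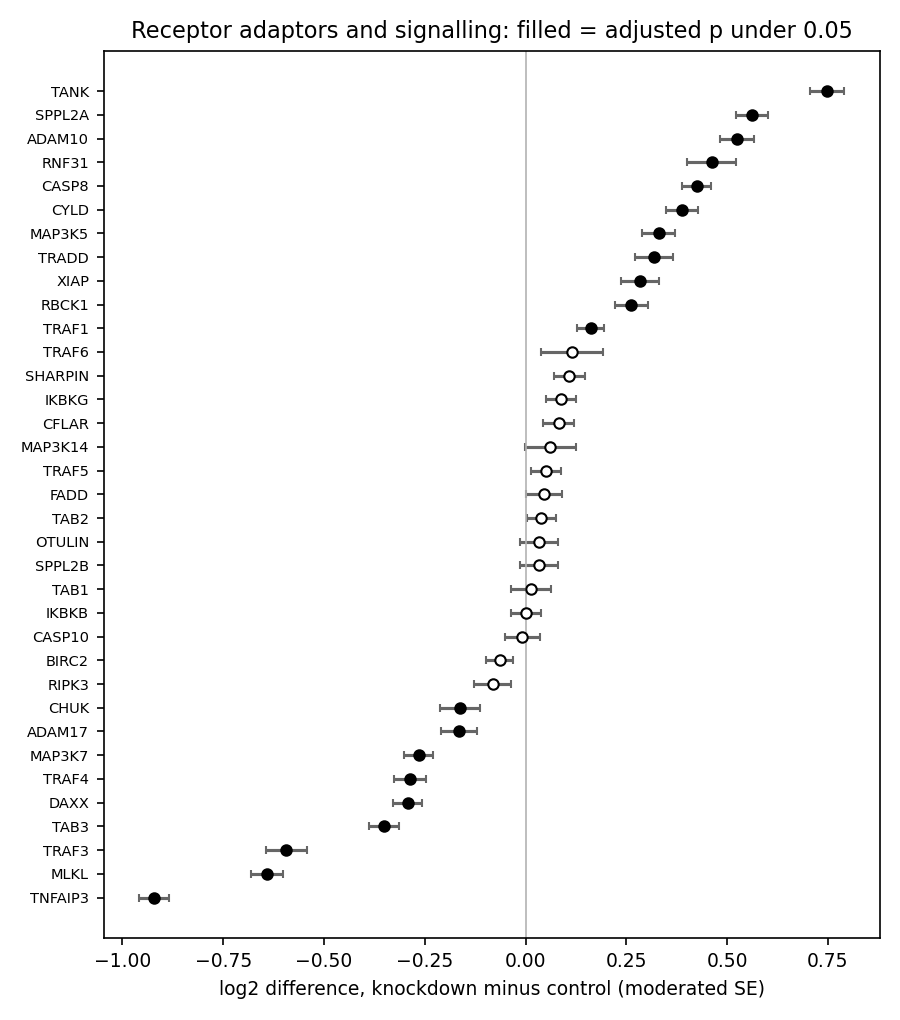
Log2 difference (knockdown minus control, horizontal axis) of the 35 measured genes of receptor adaptors and signalling, with moderated standard errors, 3 arrays per group. Filled points passed the test, and the values run from -0.92 for TNFAIP3 to 0.75 for TANK.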

How the data were processed

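Total RNA was taken up in Trizol, biotin-labelled and hybridized, per the labels' protocols. The deposited values are log2 signals, for which the submitters' processing notes name limma, RMA and affy without version, role or order. The base of the logarithm is taken from RMA's usual output. For every probe set the median over the 6 arrays is 0 within rounding (at most 4.85e-07), and no source states this centring step. Quantile normalization, part of RMA, hides a change of all transcripts in 1 direction.

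Probe sets with 1 symbol in the array's annotation (44988 of 49395, of which 102 are array controls) were averaged per gene without a filter. All 38 members matched a RefSeq gene number. Groups were compared with limma 3.58.1 (lmFit, eBayes; R 4.3.3) over all genes and, separately, over all probe sets, two-sided, with Benjamini-Hochberg adjustment and a threshold of 0.05. The fit was tested on simulated data. Signal classes (8 to 16, 4 to 8, 2 to 4 before centring) were read from the rounding step of the values. Of 23 background control probe sets 10 lay above the lowest class, 4 of them in the highest, so a class does not show detection. Arrays of 1 group shared at most 140 identical values. Every member is named, and of the signalling list up to 4 genes per direction by size, with others chosen after their values were seen. Members, lists, roles and motifs were chosen with earlier results of these data known. Their number, 3 arrays per group, limits the precision.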

Additional observations from a re-analysis of the deposited data

Results flagged for a closer look

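Of 6 probe sets annotated with several genes, 1 of them in the family, 2 changed in the fit over all probe sets. In that fit 36.9% of all probe sets changed, so the count is not above the background. Both are annotated with TNFRSF10C and a second locus, lie outside the gene means above, and cannot be assigned to either gene. The one of the _x_at kind stood at 0.32, 0.30 and 0.41 in knockdown arrays and at -0.34, -0.40 and -0.30 in control arrays, a difference of 0.69 (SE 0.05, adjusted p = 3.89e-05 in limma). The one of the _a_at kind stood at 0.062, 0.34 and 0.46 in knockdown arrays and at -0.062, -0.24 and -0.087 in control arrays, a difference of 0.42 (SE 0.10, adjusted p = 0.0135 in limma). Both were in the middle signal class. They were singled out because a signal above the control arrays appeared in probe sets that the comparison did not use.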

How the results depend on the processing

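Each gene was also read by its most variable, highest or lowest probe set. Further alternatives were the middle and high signal classes, centring on array medians or on either set of spike-ins, array weights, robust eBayes, the replicate block and leaving out each of the 6 arrays. Hybridization spike-in centring gave 10960 changed genes, against 7266, with 3 members upward and 17 downward in place of 7 and 4, and poly-A centring gave 11 members downward. Each of these centrings shifts the difference of every gene by the same amount. Standard errors change as well, under hybridization spike-in centring from 0.047 to 0.066 for TNFRSF1B and from 0.056 to 0.047 for CD70. What moved the counts was not tested. Hybridization spike-in centring turned NGFR to -0.14 and TNFRSF19 to -0.054. The largest-variance probe set turned TNFRSF1A to -0.29, which is also its lowest probe set. The _s_at probe set of FAS stood at 0.53 and the lowest of TNFRSF19 at -0.044, against gene means of the opposite sign. Leaving out arrays gave 6 to 7 rises, 3 to 5 falls, 18 to 21 changed signalling genes, against 20, and 6331 to 6637 changed genes. With the replicate block 6684 genes changed, 6 members rose and 3 fell. Deviations of same-numbered arrays correlated at -0.030, -0.016 and -0.10, and no knockdown array correlated best with its own number. No pairing by number was seen, but 3 arrays per group are too few to exclude one. Of the values of single members under alternatives, 518 kept direction and side of the threshold or were uncalled on both sides, 32 gained the call, 26 lost it and 6 turned. Signal over background is unknown from centred values, which limits statements on detection in every signal class.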
